A study of Mus musculus with 9 samples.

Results

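Integrins and other leukocyte adhesion molecules were followed here as 9 genes in mouse peritoneal macrophages stimulated with lipopolysaccharide (LPS), a component of bacterial outer membranes that activates TLR4. They were the rows of the deposited expression table whose symbol was Itgb2, Itgal, Itgb1, Itga4, Itga5, Itgav, Icam1, Cd44 or Selplg, and each symbol occurred once among the 55335 genes listed. All 9 passed the filter on low values, at least 1 FPKM (fragments scaled by transcript length and library size) in at least 3 libraries, as did 11721 genes in all.

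Bulk RNA-seq was available for 9 libraries, 3 in each of 3 groups, and no strain, sex, age or genotype was given in the labels. The LPS+EtOH group received LPS at 1 µg/mL with 5% ethanol. The LPS+CPZ group received the same LPS with 100 µM of an agent that the labels name only as CPZ. The LPS group received LPS alone. In all groups stimulation lasted 4 h after 1 h of culture, and each library was made from a pool of RNA from 3 samples. No unstimulated cells and no vehicle control for CPZ were analysed here, so every comparison was between LPS-stimulated groups, and both added treatments were set against the same 3 LPS libraries. The question addressed was how either addition altered adhesion gene expression in stimulated cells.

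Integrins are receptors made of an alpha and a beta chain that bind other cells or extracellular matrix and pass force to the actin cytoskeleton. The beta2 chain (Itgb2, CD18) is confined to leukocytes and pairs with alphaL (Itgal) to form LFA-1, whose main ligand is ICAM-1 (Icam1). The beta1 chain (Itgb1) pairs with alpha4 (Itga4) in VLA-4, which binds VCAM-1 and fibronectin, with alpha5 (Itga5) in the fibronectin receptor, and with alphaV (Itgav), which also has other beta partners. CD44 (Cd44) binds hyaluronan, and PSGL-1 (Selplg) is the mucin through which leukocytes roll on selectins.

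Promoter sequence was at hand for 6 of the 9 genes, from RefSeq on GRCm38.p6, spanning 250 bases before to 50 bases after the annotated start. The entries for Itgb2, Itgal and Selplg were missing. Shown are the promoters of Icam1 and Cd44, whose values across the libraries lay closest together, and of Itgb1 and Itga4, the chains of VLA-4, whose values lay apart. Capitals mark matches on either strand to GGNNTTTCC, a pattern close to NF-kB sites, or to TTCNNNGAA, the pattern of STAT sites.
Icam1, chr9:21015690-21015989, plus strand: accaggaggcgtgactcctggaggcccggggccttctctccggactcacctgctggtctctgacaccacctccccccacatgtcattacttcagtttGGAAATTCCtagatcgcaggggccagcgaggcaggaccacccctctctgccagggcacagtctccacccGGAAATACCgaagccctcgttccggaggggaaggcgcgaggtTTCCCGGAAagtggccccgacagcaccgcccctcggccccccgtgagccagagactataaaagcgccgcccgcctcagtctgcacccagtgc
Cd44, chr2:102901616-102901915, minus strand: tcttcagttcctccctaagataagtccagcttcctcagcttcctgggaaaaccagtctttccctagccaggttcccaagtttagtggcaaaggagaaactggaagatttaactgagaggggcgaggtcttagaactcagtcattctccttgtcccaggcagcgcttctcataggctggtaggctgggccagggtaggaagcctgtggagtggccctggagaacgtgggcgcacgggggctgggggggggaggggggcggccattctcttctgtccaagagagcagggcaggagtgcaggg
Itgb1, chr8:128685404-128685703, plus strand: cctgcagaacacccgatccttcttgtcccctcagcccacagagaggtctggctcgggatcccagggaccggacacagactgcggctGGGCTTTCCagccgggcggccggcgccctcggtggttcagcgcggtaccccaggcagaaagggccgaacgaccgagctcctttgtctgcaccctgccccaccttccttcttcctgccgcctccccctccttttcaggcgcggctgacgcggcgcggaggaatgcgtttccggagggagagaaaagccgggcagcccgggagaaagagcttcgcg
Itga4, chr2:79255176-79255475, plus strand: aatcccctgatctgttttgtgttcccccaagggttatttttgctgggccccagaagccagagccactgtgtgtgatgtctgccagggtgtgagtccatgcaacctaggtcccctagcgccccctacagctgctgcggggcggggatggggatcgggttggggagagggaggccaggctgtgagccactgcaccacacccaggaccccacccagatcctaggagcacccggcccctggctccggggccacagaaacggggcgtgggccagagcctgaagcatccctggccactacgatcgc
The Icam1 promoter held GGNNTTTCC on the minus strand with its leftmost printed base 153 and 84 bases before the annotated start, read on the printed strand as GGAAATTCC and GGAAATACC. It also held TTCNNNGAA 42 bases before the start, and TATAAA 13 bases after the annotated start. The Itgb1 promoter held GGNNTTTCC once, 164 bases before the start, and the Cd44 and Itga4 promoters held neither pattern within the window. Among 32851 RefSeq promoters of the same length, 5.82% held GGNNTTTCC and 8.30% held TTCNNNGAA. A further pattern, TGANTCA of AP-1 sites, was in none of the 6 promoters and in 7.81% of all. These matches are descriptions of the letters only.

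The libraries of a group were alike, with correlations of log2(FPKM + 1) of 0.975 to 0.989 within groups against 0.736 to 0.885 between them, and total FPKM ranged from 302126 to 363356. Globin genes took 0.172 to 0.221% of total FPKM in LPS+EtOH libraries, 0.0452 to 0.0972% in LPS+CPZ libraries and 11.5 to 29.4% in LPS libraries. The 9 macrophage markers summed to 2662 to 2989 FPKM in LPS+EtOH, 1056 to 1233 FPKM in LPS+CPZ and 1592 to 2047 FPKM in LPS libraries. They included Adgre1 (F4/80) at means of 89.0, 88.5 and 141 FPKM in LPS+EtOH, LPS+CPZ and LPS libraries, while Mertk and Cd163 stayed below 0.4 FPKM in every library. Markers of other leukocytes were present. The 12 neutrophil markers summed to 43753 to 48329 FPKM in LPS+EtOH, 6384 to 6890 FPKM in LPS+CPZ and 3857 to 5428 FPKM in LPS libraries, with Mpo and Elane near 0 throughout and all 10 tested markers higher in LPS+EtOH than in LPS. The 8 B cell markers summed to 33.1 to 53.7, 131 to 173 and 436 to 658 FPKM in the same order of groups, and the 10 T and NK cell markers to 1.07 to 2.37, 12.5 to 22.8 and 54.6 to 72.1 FPKM. All 8 tested B cell markers and all 8 tested T and NK cell markers were lower in either treated group than in LPS. The 8 markers of large resident peritoneal macrophages summed to 3.90 to 6.43, 19.5 to 37.5 and 214 to 372 FPKM, with Gata6 below 0.5 FPKM in every library. Fewer cells of a type and less RNA per cell cannot be told apart in such bulk libraries, and the part of cell makeup in the values that follow was not tested.

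With ethanol, 3 of the 9 adhesion genes were higher and 5 lower than with LPS alone, by limma on log2(FPKM + 1) with a Benjamini-Hochberg adjusted p under 0.05 over all 11721 genes. Selplg, Itgb2 and Icam1 rose, and Itga4, Itgal, Itgav, Itga5 and Itgb1 fell. Of all genes tested, 83.6% passed in this comparison, 19% higher and 64.6% lower, so 8 of 9 is close to the share of all genes. With CPZ, 1 gene was higher (Itgb2) and 7 were lower than with LPS alone, where 69.2% of all genes passed, 20.7% higher and 48.4% lower. Between the treatments, 3 genes were higher in LPS+CPZ than in LPS+EtOH (Itga4, Itgav and Itgb1) and 5 lower, where 76.6% of all genes passed, 61.4% higher and 15.2% lower. Groups did not overlap for 8 of the 9 genes in LPS+EtOH against LPS, 6 in LPS+CPZ against LPS and 9 in LPS+CPZ against LPS+EtOH, beside 84.8%, 72.9% and 79% of all genes. Across the 9 genes, log2 changes had a median of −0.71 in LPS+EtOH against LPS, beside −0.82 for all genes. The median was −1.41 in LPS+CPZ against LPS, beside −0.33 for all genes, and −0.60 in LPS+CPZ against LPS+EtOH, beside 0.55 for all genes. Log2 changes are on the scale of FPKM + 1, on which changes of weakly expressed genes appear smaller than they are, and the fold values given are ratios of mean FPKM.

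**Figure D1:**
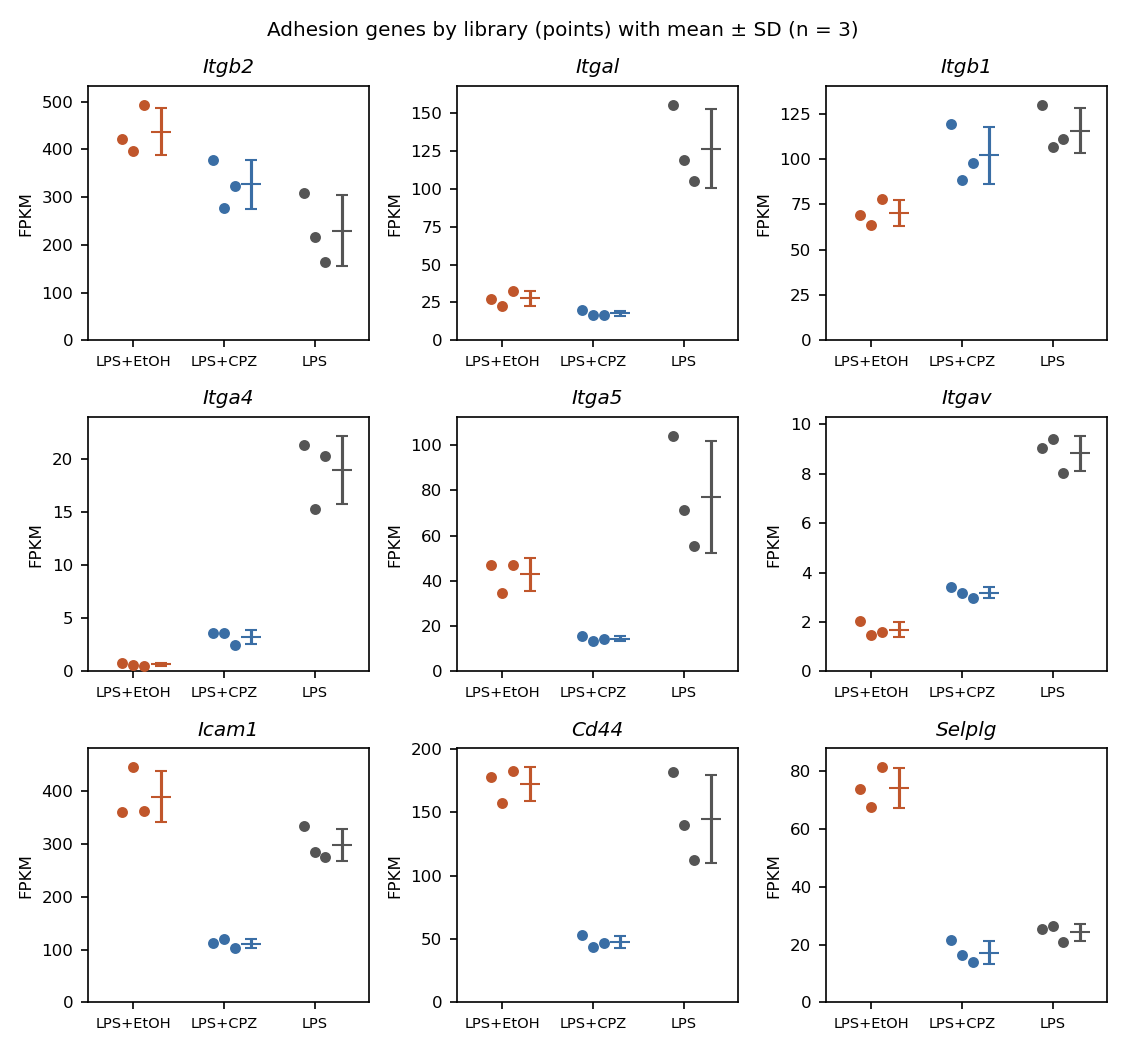
FPKM of each of the 9 genes in each of the 9 libraries (points), with the mean ± SD of the 3 libraries beside them; each panel has its own axis from 0. Itga4 and Itgav were highest in LPS, Selplg stood apart in LPS+EtOH, and Icam1 and Cd44 were lowest in LPS+CPZ.

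Itgb2, the shared chain of the leukocyte integrins, was the gene of the 9 with the highest mean in both treated groups. Its values were 421, 397 and 493 FPKM in LPS+EtOH libraries, 379, 277 and 324 FPKM in LPS+CPZ libraries, and 309.6, 216 and 164 FPKM in LPS libraries. LPS+EtOH lay above LPS without overlap, whereas the lowest LPS+CPZ library lay below the highest LPS library. Itgb2 rose 1.90-fold with ethanol (log2 change 0.97 ± 0.22 SE, limma adjusted p = 0.00178), a call lost in 1 of 21 recomputations, under quantile scaling (log2 change 0.48, limma adjusted p = 0.0794). In LPS+CPZ it was 1.42-fold higher than in LPS, just past the threshold (0.54 ± 0.22, limma adjusted p = 0.0478). That call was lost in 14 of 21 recomputations, among them TPM scaling, quantile scaling and leaving out LPS+CPZ library 1 or 3, LPS library 2 or 3, or any LPS+EtOH library (limma adjusted p = 0.0567 to 0.227). Between LPS+CPZ and LPS+EtOH the groups did not overlap, but the difference of −0.43 (95% interval −0.91 to 0.06) missed the threshold (limma adjusted p = 0.0994). It passed when only the 2 groups were fitted (limma adjusted p = 0.0268), when LPS library 1 or 3 was left out (limma adjusted p = 0.038 and 0.0467) and under median-ratio scaling, where it was −1.20.

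Itgal, which encodes the alpha chain that pairs with beta2 in LFA-1, was lower in both treated groups than in LPS, where Itgb2 was not. It reached 27.6, 23.0 and 32.4 FPKM in LPS+EtOH libraries, 19.7, 16.7 and 16.8 FPKM in LPS+CPZ libraries, and 155, 119 and 105 FPKM in LPS libraries. Every treated library was below every LPS library, and LPS+CPZ was below LPS+EtOH without overlap. The mean was 4.57-fold lower with ethanol (log2 change −2.15 ± 0.17 SE, limma adjusted p = 7.21e-07) and 7.12-fold lower with CPZ (−2.75 ± 0.17, limma adjusted p = 4.91e-07) than with LPS alone. It was 1.56-fold lower in LPS+CPZ than in LPS+EtOH (−0.60 ± 0.17, limma adjusted p = 0.00789). All 3 calls held in each of 21 recomputations with other pseudocounts, filters, scalings and fits and with each library left out. Itgal is also expressed by lymphocytes. The summed B cell and T and NK cell markers given above were lowest in LPS+EtOH and highest in LPS. Those of large resident peritoneal macrophages stood in the same order as the lymphocyte sums. Itgal itself was lowest in LPS+CPZ, so its order between the treatments was the reverse of these sums. The part of cell makeup in the Itgal values was not tested.

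Itgb1, the partner of most matrix-binding alpha chains, had 69.3, 63.7 and 77.8 FPKM in LPS+EtOH libraries, 119, 88.6 and 97.7 FPKM in LPS+CPZ libraries, and 129.8, 106 and 111 FPKM in LPS libraries. LPS+EtOH libraries were below all others, and LPS+CPZ overlapped LPS. Itgb1 was 1.65-fold lower with ethanol than with LPS alone (log2 change −0.71 ± 0.15 SE, limma adjusted p = 0.000884), and 1.45-fold higher in LPS+CPZ than in LPS+EtOH (0.52 ± 0.15, limma adjusted p = 0.00731). Both differences changed sign under median-ratio scaling, to 0.38 (limma adjusted p = 0.064) and −0.24 (limma adjusted p = 0.227). Between LPS+CPZ and LPS the difference of −0.19 had an interval of −0.51 to 0.14 (limma adjusted p = 0.273). It passed with the globin genes left out (−0.50, limma adjusted p = 0.014).

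Itga4, which encodes the alpha chain of VLA-4, had the largest fold decrease of the 9 genes in LPS+EtOH against LPS. It had 0.797, 0.620 and 0.545 FPKM in LPS+EtOH libraries, 3.59, 3.60 and 2.45 FPKM in LPS+CPZ libraries, and 21.2, 15.3 and 20.3 FPKM in LPS libraries. The 3 groups were separate, with LPS+CPZ between the other groups. The mean was 29.0-fold lower with ethanol (log2 change −3.58 ± 0.16 SE, limma adjusted p = 4.07e-08) and 5.90-fold lower with CPZ (−2.24 ± 0.16, limma adjusted p = 1.22e-06) than with LPS alone. It was 4.91-fold higher in LPS+CPZ than in LPS+EtOH (1.34 ± 0.16, limma adjusted p = 3.05e-05). The 3 calls held in all 21 recomputations, and the promoter of Itga4 printed above held neither marked pattern. Alpha4 is also a lymphocyte integrin. The summed markers of B cells, of T and NK cells and of large peritoneal macrophages followed the same order of groups. Of all genes tested, 64.6% were lower in LPS+EtOH and 48.4% lower in LPS+CPZ than in LPS. Between the treatments, 61.4% were higher in LPS+CPZ. The part of cell makeup in the Itga4 values was not tested.

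Itga5, which encodes the alpha chain of the fibronectin receptor, was lowest with CPZ. It had 47.1, 34.6 and 47.1 FPKM in LPS+EtOH libraries, 15.6, 13.3 and 14.4 FPKM in LPS+CPZ libraries, and 104, 71.5 and 55.3 FPKM in LPS libraries. No groups overlapped, and the LPS libraries spread widest. Itga5 was 5.34-fold lower with CPZ than with LPS alone (log2 change −2.29 ± 0.21 SE, limma adjusted p = 6.54e-06) and 2.98-fold lower than with ethanol (−1.50 ± 0.21, limma adjusted p = 9.54e-05). With ethanol it was 1.79-fold lower than with LPS alone (−0.79 ± 0.21, limma adjusted p = 0.00481), a difference that changed sign under median-ratio scaling (0.28, limma adjusted p = 0.267).

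Itgav, which encodes the alphaV chain of vitronectin and RGD-binding integrins, was expressed weakly. It had 2.03, 1.45 and 1.61 FPKM in LPS+EtOH libraries, 3.43, 3.19 and 2.95 FPKM in LPS+CPZ libraries, and 9.03, 9.40 and 8.02 FPKM in LPS libraries. The groups were separate, in the same order as for Itga4. The mean was 5.20-fold lower with ethanol (log2 change −1.87 ± 0.12 SE, limma adjusted p = 1.95e-07) and 2.77-fold lower with CPZ (−1.23 ± 0.12, limma adjusted p = 9.23e-06) than with LPS alone, and both calls held in all 21 recomputations. It was 1.88-fold higher in LPS+CPZ than in LPS+EtOH (0.64 ± 0.12, limma adjusted p = 0.000628), a call lost under median-ratio scaling (0.11, limma adjusted p = 0.43) and quantile scaling (0.03, limma adjusted p = 0.844).

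Icam1, the inducible ligand of LFA-1 on endothelium, epithelium and leukocytes, was lower with CPZ than in either other group. It had 359.7, 445 and 362 FPKM in LPS+EtOH libraries, 112, 120.3 and 102 FPKM in LPS+CPZ libraries, and 333, 285 and 276 FPKM in LPS libraries. Each LPS+CPZ library was below every library of the other groups. Icam1 was 2.67-fold lower with CPZ than with LPS alone (log2 change −1.41 ± 0.14 SE, limma adjusted p = 1.02e-05) and 3.50-fold lower than with ethanol (−1.79 ± 0.14, limma adjusted p = 2.22e-06), in all 21 recomputations. With ethanol it was 1.31-fold higher than with LPS alone (0.38 ± 0.14, interval 0.08 to 0.69, limma adjusted p = 0.0242). That call was lost under TPM scaling (0.27, limma adjusted p = 0.171), with the globin genes left out (0.07, limma adjusted p = 0.655), and without LPS+EtOH library 2 or LPS library 2 or 3 (limma adjusted p = 0.0648 to 0.0951), and the sign turned under quantile scaling (−0.14, limma adjusted p = 0.343).

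Cd44, the hyaluronan receptor, had 178, 157 and 183 FPKM in LPS+EtOH libraries, 53.1, 43.7 and 46.5 FPKM in LPS+CPZ libraries, and 182, 140.1 and 113 FPKM in LPS libraries. LPS+EtOH and LPS overlapped, and LPS+CPZ lay below both. Cd44 was 3.03-fold lower with CPZ than with LPS alone (log2 change −1.56 ± 0.17 SE, limma adjusted p = 2.06e-05) and 3.61-fold lower than with ethanol (−1.83 ± 0.17, limma adjusted p = 6.63e-06), in all 21 recomputations. Between LPS+EtOH and LPS the difference was 0.28 with an interval of −0.10 to 0.65 (limma adjusted p = 0.153). It passed under median-ratio scaling (1.37, limma adjusted p = 8.92e-05) and without LPS library 1 (0.45, limma adjusted p = 0.0167). Across the 9 libraries the centred log2 values of Cd44 and Icam1 differed by a root mean square of 0.203, the smallest of any pair of the 9 genes, followed by Itga5 and Cd44 at 0.455. Of the printed promoters, Icam1 held 3 marked matches and Cd44 none.

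Selplg, which encodes the selectin ligand PSGL-1, had 73.6, 67.6 and 81.4 FPKM in LPS+EtOH libraries, 21.6, 16.2 and 13.9 FPKM in LPS+CPZ libraries, and 25.4, 26.3 and 20.9 FPKM in LPS libraries. All LPS+EtOH libraries stood above all others, and LPS+CPZ overlapped LPS. With ethanol Selplg was 3.07-fold higher than with LPS alone (log2 change 1.58 ± 0.16 SE, limma adjusted p = 4.82e-06). In LPS+CPZ it was 4.30-fold lower than in LPS+EtOH (−2.06 ± 0.16, limma adjusted p = 2.54e-06), and both calls held in all 21 recomputations. It was 1.40-fold lower with CPZ than with LPS alone (−0.48 ± 0.16, limma adjusted p = 0.0222). That call was lost without LPS+CPZ library 2 or 3 or LPS library 1 or 2 (limma adjusted p = 0.0598 to 0.0921), and under median-ratio (−0.17, limma adjusted p = 0.413) and quantile scaling (−0.33, limma adjusted p = 0.108). Neutrophils carry PSGL-1 at high density. Their summed markers given above were highest in LPS+EtOH. The sum was also higher in LPS+CPZ than in LPS, but of the 10 tested markers 3 were higher and 3 lower there. The part of neutrophils in the Selplg values was not tested.

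**Figure D2:**
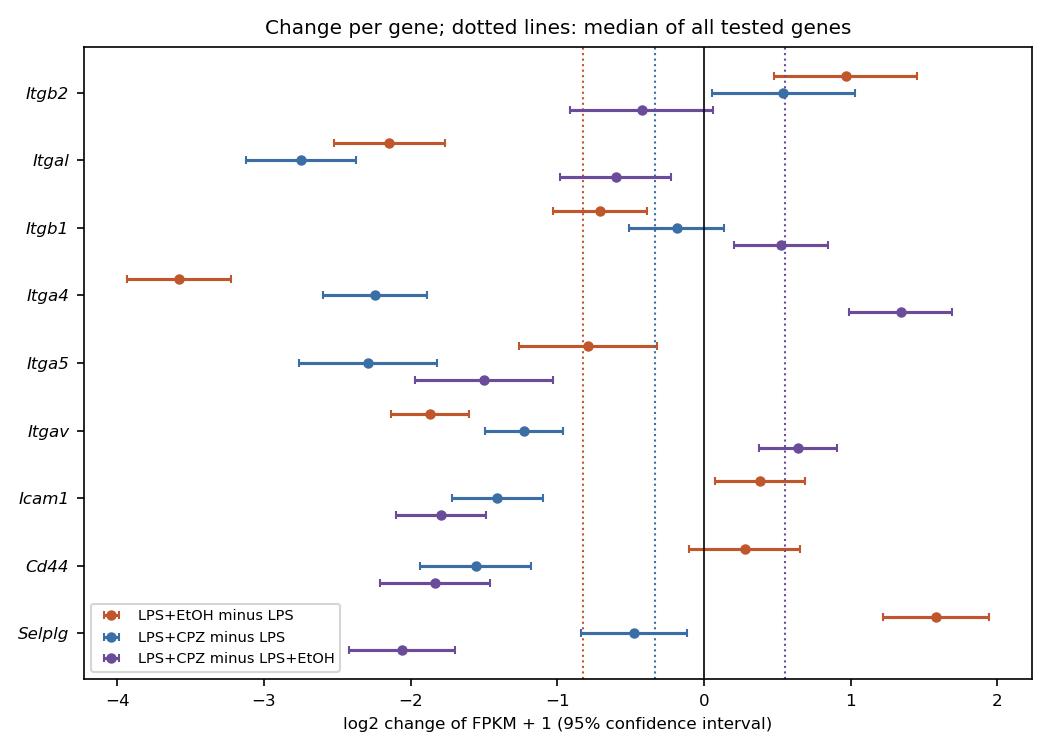
Log2 change of FPKM + 1 per gene (x axis) with its 95% confidence interval, for the 3 comparisons; dotted vertical lines give the median of all 11721 tested genes in the comparison of the same colour (−0.82, −0.33 and 0.55). Itga4 reached −3.58 in LPS+EtOH minus LPS, and Selplg ran from 1.58 in LPS+EtOH minus LPS to −2.06 in LPS+CPZ minus LPS+EtOH.

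The order of levels within a group, per transcript length, differed between the groups. In LPS+EtOH, Itgb2 and Icam1 overlapped at the top (437 ± 49.9 and 389 ± 48.7 FPKM, mean ± SD, n = 3), followed by Cd44, then Selplg and Itgb1, which overlapped, then Itga5, Itgal, Itgav and Itga4, each apart from the next. In LPS+CPZ, Itgb2 stood alone at 327 ± 50.7 FPKM, Icam1 and Itgb1 overlapped (111 ± 9.12 and 102 ± 15.9 FPKM), and Cd44 followed at 47.8 ± 4.81 FPKM. Then Itgal overlapped Selplg, and Selplg overlapped Itga5. Itga4 and Itgav came last and overlapped each other, apart from Itga5. In LPS, the first 5 genes were Icam1, Itgb2, Cd44, Itgal and Itgb1, of which neighbours overlapped. Itga5 came after Itgb1 without overlap, then Selplg and Itga4, which overlapped, and Itgav, apart from Itga4.

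Ratios of FPKM between chains within a library do not depend on a single factor per library, though quantile scaling can change them. Over 7 ratios, 21 comparisons were made by an exact two-sided permutation test, whose smallest possible p with 3 against 3 libraries is 0.1. Itgb2 over Itgb1 averaged 6.22 ± 0.131 in LPS+EtOH, 3.21 ± 0.0952 in LPS+CPZ and 1.97 ± 0.457 in LPS (SD, n = 3 each), with no overlap between groups (exact permutation p = 0.1 for each pair). Itgal over Itgb2, the LFA-1 alpha chain per beta chain, averaged 0.0630 ± 0.00442 in LPS+EtOH, 0.0548 ± 0.00484 in LPS+CPZ and 0.564 ± 0.0703 in LPS. The treated groups overlapped each other (exact permutation p = 0.2) and lay below LPS without overlap (exact permutation p = 0.1 for each). Itga4 over Itgb1 averaged 0.00941 ± 0.00227 in LPS+EtOH, 0.0319 ± 0.00794 in LPS+CPZ and 0.164 ± 0.0195 in LPS, with all groups separate (exact permutation p = 0.1 for each pair).

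Alpha5 per beta1 set CPZ apart. Itga5 over Itgb1 averaged 0.610 ± 0.0676 in LPS+EtOH, 0.143 ± 0.0108 in LPS+CPZ and 0.658 ± 0.152 in LPS. LPS+EtOH overlapped LPS (exact permutation p = 0.8), and LPS+CPZ lay below both without overlap (exact permutation p = 0.1 for each). Itgav over Itgb1 averaged 0.0242 ± 0.00446 in LPS+EtOH, 0.0316 ± 0.00384 in LPS+CPZ and 0.0768 ± 0.0102 in LPS, with overlap between the treated groups (exact permutation p = 0.2) and none with LPS (exact permutation p = 0.1 for each). The other 2 ratios, with Itgam, were added after the data were seen. They use the entry of that symbol with the higher mean and are uncertain. A second entry had 11.8 to 21.2 FPKM in LPS+EtOH, 23.7 to 29.7 FPKM in LPS+CPZ and 15.5 to 23.3 FPKM in LPS libraries. Itgam over Itgb2 averaged 0.178 ± 0.0149 in LPS+EtOH, 0.246 ± 0.00773 in LPS+CPZ and 0.221 ± 0.0449 in LPS, where both treated groups overlapped LPS (exact permutation p = 0.2 and 0.4) but not each other (exact permutation p = 0.1). Itgal over Itgam averaged 0.355 ± 0.0232 in LPS+EtOH, 0.222 ± 0.0137 in LPS+CPZ and 2.59 ± 0.405 in LPS, with all groups separate (exact permutation p = 0.1 for each pair). A ratio shows unequal change of its 2 genes and does not say which of them moved.

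**Figure D3:**
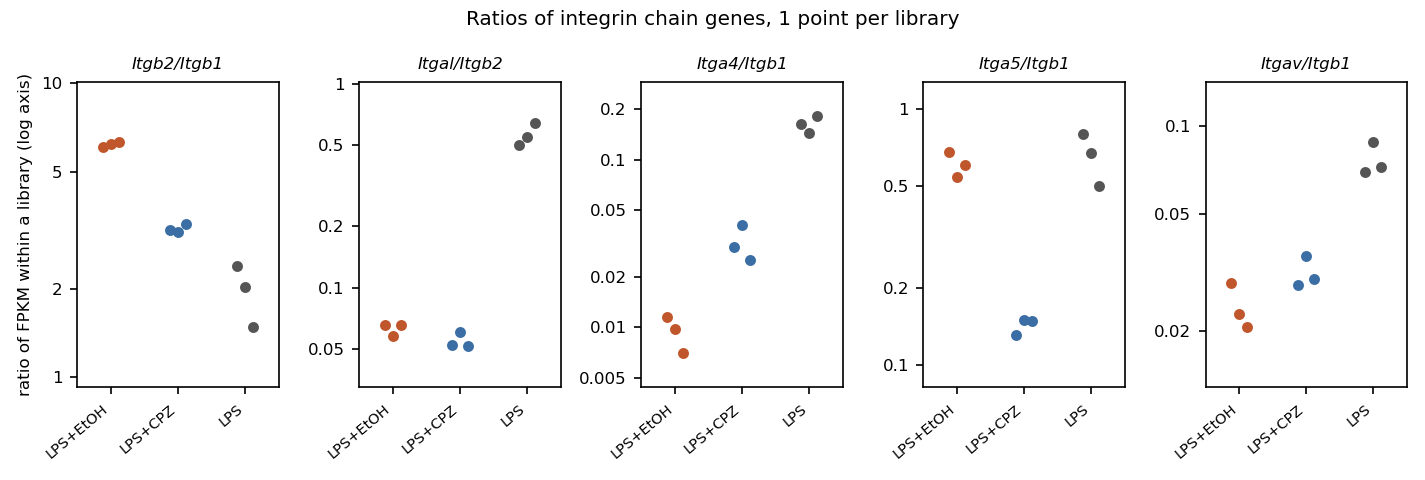
Ratio of the FPKM of 2 integrin chains within each library (log axis, each panel with its own range), 1 point per library. Itgb2 over Itgb1 was 6.08 to 6.34 in LPS+EtOH, 3.13 to 3.31 in LPS+CPZ and 1.48 to 2.39 in LPS libraries, and Itga5 over Itgb1 was low in LPS+CPZ.

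Most genes passed the threshold in each comparison, and the direction of some changes depended on how libraries were put on a common scale. Median-ratio scaling, which centres the typical gene, moved the median log2 change of all genes in LPS+EtOH against LPS to −0.08, and called 4435 genes higher and 4936 lower, where the deposited FPKM gave 2230 and 7566. For LPS+CPZ against LPS it called 3230 higher and 3997 lower (deposited FPKM 2432 and 5674). Between LPS+CPZ and LPS+EtOH it called 4171 higher and 3687 lower (deposited FPKM 7195 and 1785). Relative to that centre, Itgb2 (2.06), Icam1 (1.48), Cd44 (1.37) and Selplg (2.65) were higher and Itgal (−1.07), Itga4 (−2.86) and Itgav (−1.03) lower in LPS+EtOH than in LPS. In LPS+CPZ against LPS, Itgb2 rose (0.86) and 6 genes were lower, from −0.92 for Itgav to −2.42 for Itgal. In LPS+CPZ against LPS+EtOH, Itga4 was higher (0.95) and 6 genes were lower, from −1.20 for Itgb2 to −2.82 for Selplg.

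**Figure D4:**
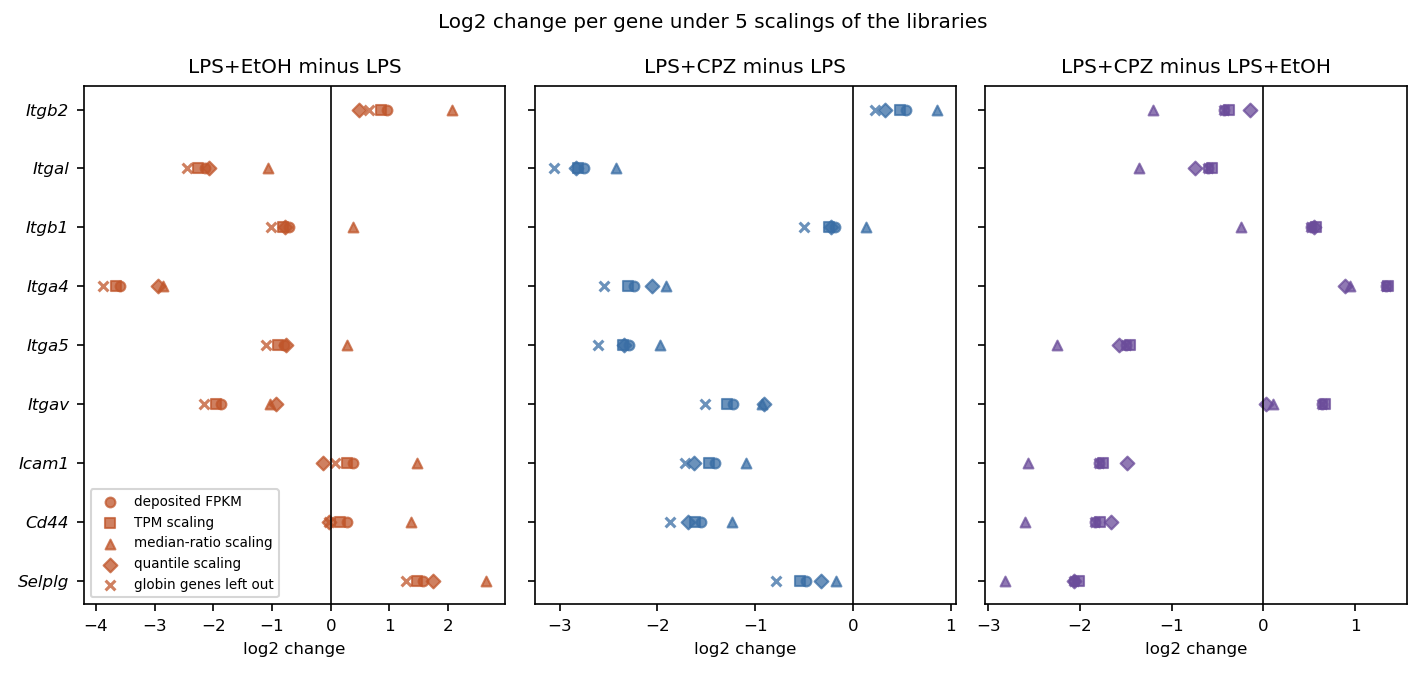
Log2 change per gene (x axis, each panel with its own range) in the 3 comparisons, with 1 symbol for each of 5 scalings of the libraries. Median-ratio scaling (triangles) lies right of the other symbols in LPS+EtOH minus LPS for most genes and changes the sign for Itgb1 (0.38) and Itga5 (0.28) there, and for Itgb1 (−0.24) in LPS+CPZ minus LPS+EtOH.

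The genes most like each member over the 9 libraries were sought by the root mean square difference of centred log2(FPKM + 1) values, and likeness in this measure is a description. For Itgb2 they were Ppp1r2-ps2 (0.123), Nfe2l2 (0.133), which encodes the antioxidant regulator NRF2, and Atg7 (0.156) of autophagy. For Itgal they were F5 (0.165), F11r (0.212) and Lif (0.230). F5 is on the list of large resident peritoneal macrophage markers. Of the 6 tested markers of that list, 3 were higher and 1, F5, was lower in LPS+CPZ than in LPS+EtOH. For Itga4 they were Ms4a6b (0.198), Calcrl (0.202) and Rasgrp1 (0.208). For Itgb1 they were Fam8a1 (0.0958), Gxylt1 (0.0981) and Sdccag3 (0.113), and for Itgav Sh3kbp1 (0.0900), Srpk1 (0.103) and Kpnb1 (0.108). For Itga5 they were Dyrk2 (0.189), Dgat2 (0.212) and Cd80 (0.252), a costimulatory ligand.

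Icam1 and Cd44 shared Cast, the calpain inhibitor calpastatin, as nearest gene (0.158 and 0.115). For Icam1 it was followed by Zc3h12a (0.168), which encodes the RNase Regnase-1, and Myd88 (0.169), the adaptor of Toll-like receptors. For Cd44 it was followed by Dusp16 (0.120) and Txnip (0.127). For Selplg the nearest were Il18rap (0.150), a chain of the IL-18 receptor, Trem3 (0.165) and Kdm6bos (0.172).

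Beyond the 9 genes, 62 of 96 genes in 6 related lists were tested. With ethanol 12 were higher, 31 lower and 19 did not pass, where 19% of all genes were higher and 64.6% lower. The median log2 change against LPS was −0.30, beside −0.82 for all genes. With CPZ 13 were higher, 30 lower and 19 did not pass (median −0.33, beside −0.33). These counts are close to the shares of all genes, 20.7% higher and 48.4% lower. Between LPS+CPZ and LPS+EtOH, 31 were higher in LPS+CPZ, 13 lower and 18 did not pass (median 0.37, beside 0.55). Of all genes, 61.4% were higher and 15.2% lower there. The same shares are the reference for the counts of each list below. Under median-ratio scaling the count with ethanol was 31 higher and 19 lower, and that between the treatments 18 higher and 29 lower, so both leanings turned.

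**Figure D5:**
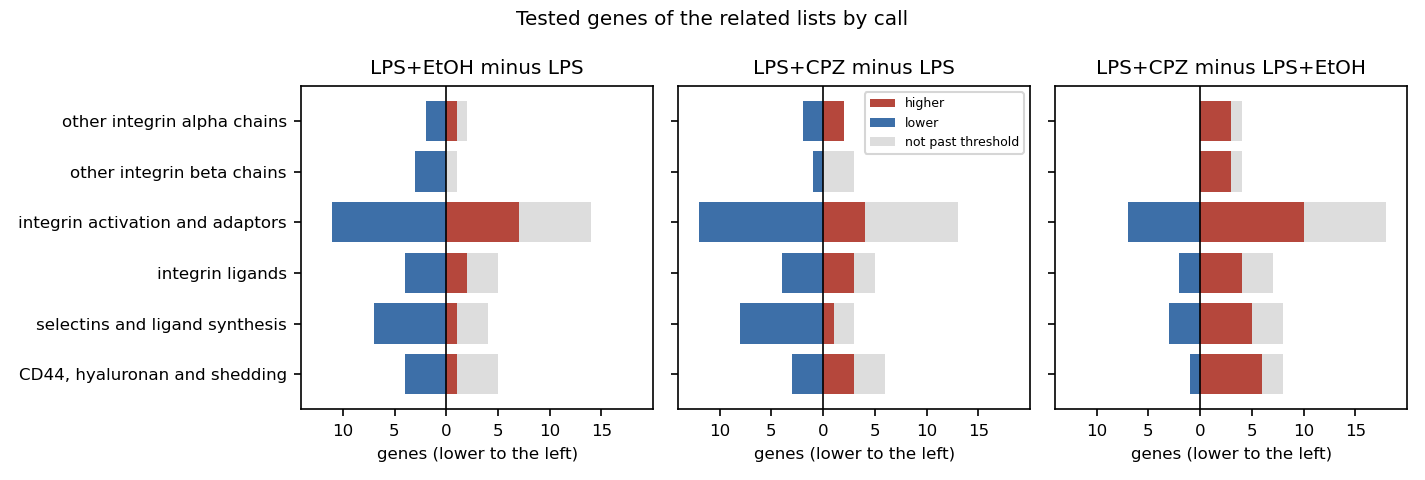
Number of tested genes (x axis) of each of 6 related lists called lower (left of 0), higher (right of 0) or not past the threshold (grey) in the 3 comparisons on the deposited FPKM. In LPS+CPZ minus LPS+EtOH more list genes were higher (31) than lower (13), where 61.4% of all tested genes were higher and 15.2% lower. The split of the list genes was 18 and 29 under median-ratio scaling.

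Among the other alpha chains, 4 of 14 were tested. With ethanol 1 was higher and 2 lower (median −0.62), with CPZ 2 were higher and 2 lower (median −0.02), and in LPS+CPZ against LPS+EtOH 3 were higher and none lower (median 0.68). Itgam, which encodes the alphaM chain of the complement receptor Mac-1, averaged 78.2 ± 15.7 FPKM in LPS+EtOH, 80.2 ± 11.7 FPKM in LPS+CPZ and 49.8 ± 14.7 FPKM in LPS. It was higher than in LPS in both treated groups (log2 change 0.66 and 0.71, limma adjusted p = 0.0133 and 0.0123). A second entry carries its symbol, so its level is uncertain, and both calls were lost with the globin genes left out (limma adjusted p = 0.137 and 0.108) and without LPS library 2 (limma adjusted p = 0.0583 and 0.053), the first also without LPS+EtOH library 3 (limma adjusted p = 0.0577). Itgax, the alphaX chain CD11c, averaged 15.8 ± 2.04 FPKM in LPS+EtOH, 38.2 ± 2.98 FPKM in LPS+CPZ and 16.2 ± 5.76 FPKM in LPS. It was higher in LPS+CPZ than in LPS (1.25, limma adjusted p = 0.000712) and than in LPS+EtOH (1.22, limma adjusted p = 0.000691), the last not under median-ratio scaling (0.48, limma adjusted p = 0.103).

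Of the 6 other beta chains 4 were tested. With ethanol 3 were lower (median −1.08), with CPZ 1 was lower (median −0.10), and in LPS+CPZ against LPS+EtOH 3 were higher (median 1.02). Itgb7, the lymphocyte chain that pairs with alpha4, averaged 1.61 ± 0.256 FPKM in LPS+EtOH, 5.47 ± 1.58 FPKM in LPS+CPZ and 25.8 ± 3.32 FPKM in LPS. It was lower in LPS+EtOH than in LPS (log2 change −3.36, limma adjusted p = 8.46e-08) and in LPS+CPZ than in LPS (−2.07, limma adjusted p = 4.68e-06), and higher in LPS+CPZ than in LPS+EtOH (1.28, limma adjusted p = 9.74e-05). The groups thus stood in the order seen for Itga4.

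Of 31 genes that activate integrins or link them to actin, 25 were tested. With ethanol 7 were higher and 11 lower (median −0.18), with CPZ 4 were higher and 12 lower (median −0.34), and in LPS+CPZ against LPS+EtOH 10 were higher and 7 lower (median −0.10). Under median-ratio scaling these counts were 15 and 5, 6 and 8, and 2 and 17, so the leaning turned with ethanol and between the treatments. Pxn, the adhesion scaffold paxillin, averaged 65.0 ± 10.3 FPKM in LPS+EtOH, 21.3 ± 3.39 FPKM in LPS+CPZ and 22.7 ± 2.43 FPKM in LPS. It was higher in LPS+EtOH than in LPS (1.47, limma adjusted p = 6.12e-06) and lower in LPS+CPZ than in LPS+EtOH (−1.56, limma adjusted p = 1.03e-05). Zyx, the stress fibre protein zyxin, averaged 11.03 ± 0.769 FPKM in LPS+CPZ and 31.5 ± 7.80 FPKM in LPS+EtOH (−1.41, limma adjusted p = 3.27e-05).

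Fermt3, which encodes kindlin-3, the activator of blood cell integrins, averaged 66.6 ± 3.29 FPKM in LPS+CPZ against 26.9 ± 1.20 FPKM in LPS (1.28, limma adjusted p = 2.9e-05). Skap2, an adaptor in beta2 integrin signalling, averaged 17.9 ± 2.27 FPKM in LPS+EtOH, 23.8 ± 1.94 FPKM in LPS+CPZ and 7.47 ± 0.823 FPKM in LPS, and was higher than in LPS in both (1.15 and 1.55, limma adjusted p = 8.03e-06 and 3.08e-06). Cytip, which binds cytohesin-1 and lowers LFA-1 adhesion, averaged 5.81 ± 0.505 FPKM in LPS+EtOH, 8.35 ± 1.38 FPKM in LPS+CPZ and 32.2 ± 2.37 FPKM in LPS, and was lower in both (−2.29 and −1.84, limma adjusted p = 1.08e-07 and 1.21e-06). Flna, the actin crosslinker filamin A that competes with talin for integrin tails, averaged 42.4 ± 9.21 FPKM in LPS+EtOH, 27.1 ± 2.07 FPKM in LPS+CPZ and 124 ± 25.7 FPKM in LPS. It was lower in both (−1.53 and −2.14, limma adjusted p = 1.27e-05 and 3.51e-06), but with ethanol not under median-ratio scaling (−0.45, limma adjusted p = 0.0551). Actn4, alpha-actinin-4, averaged 27.7 ± 1.13 FPKM in LPS+CPZ against 10.2 ± 0.999 FPKM in LPS+EtOH (1.36, limma adjusted p = 2.56e-06).

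Of 17 integrin ligands and counter-receptors, 9 were tested. With ethanol 2 were higher and 4 lower (median −0.04), with CPZ 3 were higher and 4 lower (median −0.22), and in LPS+CPZ against LPS+EtOH 4 were higher and 2 lower (median −0.12). Under median-ratio scaling these counts were 6 and 3, 3 and 4, and 3 and 5, so the leaning turned with ethanol and between the treatments. Fn1, fibronectin, the ligand of alpha5beta1 and alpha4beta1, averaged 0.415 ± 0.119 FPKM in LPS+EtOH, 4.65 ± 1.72 FPKM in LPS+CPZ and 107 ± 37.4 FPKM in LPS. It was lower with ethanol (log2 change −6.20, limma adjusted p = 3.49e-08) and with CPZ (−4.25, limma adjusted p = 5.12e-07) than with LPS alone, and higher in LPS+CPZ than in LPS+EtOH (1.95, limma adjusted p = 7.45e-05). F11r, the junctional molecule JAM-A that binds LFA-1, averaged 1.34 ± 0.175 FPKM in LPS+EtOH, 0.686 ± 0.132 FPKM in LPS+CPZ and 8.79 ± 3.86 FPKM in LPS, lower in both (−1.99 and −2.47, limma adjusted p = 1.35e-05 and 8.08e-06). Alcam, the CD6 ligand CD166, was higher with CPZ, at 63.2 ± 7.24 FPKM in LPS+CPZ against 22.2 ± 3.22 FPKM in LPS (1.47, limma adjusted p = 6.34e-06). Cd47, which binds thrombospondin and SIRP-alpha, averaged 8.83 ± 0.639 FPKM in LPS+CPZ against 27.1 ± 0.784 FPKM in LPS (−1.52, limma adjusted p = 2.91e-06). Thbs1, thrombospondin-1, averaged 679 ± 113 FPKM in LPS+EtOH against 421 ± 100 FPKM in LPS (0.70, limma adjusted p = 0.00646), a call lost under quantile scaling (0.29, limma adjusted p = 0.174) and with the globin genes left out (0.39, limma adjusted p = 0.123).

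Of 14 selectins and enzymes that build their ligands, 11 were tested. With ethanol 1 was higher and 7 lower (median −1.01), with CPZ 1 was higher and 8 lower (median −0.74), and in LPS+CPZ against LPS+EtOH 5 were higher and 3 lower (median 0.27). Under median-ratio scaling the count with ethanol was 4 and 4, and that between the treatments turned to 3 and 4 (3 and 5 under quantile scaling). St3gal6, a sialyltransferase that acts on selectin ligands, averaged 31.5 ± 2.19 FPKM in LPS+EtOH, 10.6 ± 1.74 FPKM in LPS+CPZ and 14.8 ± 3.55 FPKM in LPS. Like Selplg, it was higher in LPS+EtOH than in LPS (1.07, limma adjusted p = 0.000123) and lower in LPS+CPZ than in LPS+EtOH (−1.50, limma adjusted p = 1.99e-05). St3gal4, a related enzyme, averaged 3.75 ± 1.14 FPKM in LPS+CPZ against 14.0 ± 4.03 FPKM in LPS (−1.65, limma adjusted p = 0.000204). Tpst1, one of the tyrosine sulfotransferases that modify PSGL-1, averaged 0.650 ± 0.185 FPKM in LPS+EtOH, 2.04 ± 0.209 FPKM in LPS+CPZ and 7.48 ± 1.11 FPKM in LPS, lower in both (−2.36 and −1.47, limma adjusted p = 1.06e-07 and 5.87e-06). C1galt1, an enzyme of O-glycan synthesis, averaged 4.31 ± 0.889 FPKM in LPS+EtOH, 10.97 ± 1.20 FPKM in LPS+CPZ and 16.5 ± 2.49 FPKM in LPS. It was lower in both (−1.72 and −0.54, limma adjusted p = 1.86e-06 and 0.00997), with CPZ not under median-ratio (−0.24, limma adjusted p = 0.151) or quantile scaling (−0.32, limma adjusted p = 0.079).

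Selp, P-selectin, which is also a marker of large peritoneal macrophages, averaged 1.32 ± 0.416 FPKM in LPS+EtOH, 1.18 ± 0.128 FPKM in LPS+CPZ and 8.87 ± 0.619 FPKM in LPS. It was lower in both than in LPS (−2.10 and −2.18, limma adjusted p = 2.16e-07 and 5.22e-07).

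Of 14 genes for hyaluronan, CD44 linkers and shedding, 9 were tested. With ethanol 1 was higher and 4 lower (median −0.19), with CPZ 3 were higher and 3 lower (median −0.16), and in LPS+CPZ against LPS+EtOH 6 were higher and 1 lower (median 1.24). Under median-ratio scaling these counts were 4 and 3, 3 and 2, and 5 and 2, so the leaning with ethanol turned. The proteases that shed CD44 differed among themselves. Mmp14, the membrane metalloprotease MT1-MMP, averaged 0.426 ± 0.0998 FPKM in LPS+EtOH, 3.77 ± 0.470 FPKM in LPS+CPZ and 16.1 ± 8.65 FPKM in LPS, lower in both (−3.48 and −1.74, limma adjusted p = 5.79e-07 and 0.000199). Adam10 averaged 3.83 ± 0.643 FPKM in LPS+EtOH, 15.2 ± 1.80 FPKM in LPS+CPZ and 22.5 ± 5.78 FPKM in LPS, also lower in both (−2.26 and −0.51, limma adjusted p = 1.1e-06 and 0.0331). With CPZ the call was lost under median-ratio and quantile scaling, with any value above 0 kept, and without LPS+CPZ library 2 or 3 or LPS library 2 or 3 (limma adjusted p = 0.069 to 0.327). Adam17, the TNF-alpha sheddase, averaged 52.8 ± 6.80 FPKM in LPS+CPZ against 26.8 ± 4.59 FPKM in LPS, and was higher (0.95, limma adjusted p = 0.00638).

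Tnfaip6, the hyaluronan-binding protein TSG-6, averaged 5.95 ± 0.927 FPKM in LPS+EtOH, 15.4 ± 2.68 FPKM in LPS+CPZ and 3.83 ± 0.590 FPKM in LPS. It was higher with CPZ (1.76, limma adjusted p = 4.84e-06) and with ethanol (0.52, limma adjusted p = 0.00885), the last not with the globin genes left out (0.27, limma adjusted p = 0.147). Rdx, radixin, one of the linkers between CD44 and actin, averaged 4.69 ± 0.638 FPKM in LPS+EtOH, 14.2 ± 0.351 FPKM in LPS+CPZ and 21.8 ± 1.24 FPKM in LPS, lower in both (−2.01 and −0.58, limma adjusted p = 1.07e-07 and 0.00105).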

How the data were processed

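Total RNA pools were sequenced as strand-specific TruSeq libraries, per the labels. The authors deposited FPKM per gene. Per the submitters' processing notes, the tools were StringTie, STAR and FastQC 0.11.2 and the build hg38, although 55154 of 55335 gene IDs are in mouse GENCODE M21, so the build behind the values is not settled. Low values were whole multiples of a common step for 25.9 to 27.2% of entries (within 2%), so fragments were not recovered, the depth is unknown and no counting error is given. Whether counting used strand is not given in the sources used here. Exons of Itga4 and Itgav overlap the opposite-strand genes Cerkl and Gm13684, at most 0.101 and 0.535 FPKM in any library. Those of Icam1 overlap Gm47079, not analysed here.

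The 11721 genes that reached 1 FPKM in 3 or more libraries were compared as log2(FPKM + 1) with limma 3.58.1 (trend, group only, 9 libraries, 6 residual degrees of freedom) in R 4.3.3, two-sided, with Benjamini-Hochberg adjustment over all of them and a threshold of 0.05. Ratios used exact permutation tests in scipy 1.17.1 under Python 3.11.15. The labels call the pooled samples distinct but do not tell cultures from animals, so p-values measure the spread between pools. The 9 genes and all lists were chosen with earlier results of these data known. From each related list and comparison, the text's genes were taken from those past the threshold with at least 5 FPKM in the higher group, the 2 largest rises and the 2 largest falls, of which most are printed. The fit was tested on simulated data. Alternatives were other pseudocounts, filters and scalings, a replicate block and leaving out each library.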

Additional observations from a re-analysis of the deposited data

How the results depend on the processing

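Of 567 recomputed log2 changes of the 9 genes, 40 changed side of the threshold or sign, and 4 of these reversed. Under median-ratio scaling Itgb1 (0.38) and Itga5 (0.28) reversed in LPS+EtOH against LPS and Itgb1 (−0.24) in LPS+CPZ against LPS+EtOH, and under quantile scaling Icam1 (−0.14) reversed in LPS+EtOH against LPS. The cause was not tested. Of 1827 recomputed changes of the other named genes, 115 changed side or sign, and 10 reversed. In LPS+EtOH against LPS these were C1galt1c1 (median-ratio 0.78, quantile 0.58), Cd47 (median-ratio 0.72) and Spp1 (median-ratio 1.05). The others were Sharpin in LPS+CPZ against LPS (quantile 0.0064) and, in LPS+CPZ against LPS+EtOH, Cytip (median-ratio −0.23, quantile −0.014), Fermt3 (median-ratio −0.083), Itgam (median-ratio −0.72) and Skap2 (median-ratio −0.34).

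In LPS+EtOH against LPS, the genes of the 9 called higher (3) became 1 under quantile scaling and 1 at a log2 change of at least 1, and those called lower (5) became 3 under median-ratio scaling and 3 at that log2 change. In LPS+CPZ against LPS, the 1 called higher became 0 with a pseudocount of 0.1 or 5, with any value above 0 kept, under TPM or quantile scaling, with the globin genes left out, with only the 2 groups fitted and at a log2 change of at least 1. Leaving out single libraries gave 0 to 1 there. In LPS+CPZ against LPS+EtOH, those called higher (3) became 1 under median-ratio scaling and 1 at a log2 change of at least 1.

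Over all genes, a filter of 5 FPKM gave 5345, 4741 and 4993 calls in LPS+EtOH against LPS, LPS+CPZ against LPS and LPS+CPZ against LPS+EtOH, where fewer genes were tested, and a log2 change of at least 1 gave 6267, 3155 and 3665. Of the related list genes in LPS+EtOH against LPS, those higher (12) became 31 under median-ratio scaling and 5 with the globin genes left out, and those lower (31) became 19 under median-ratio scaling and 19 with the 5 FPKM filter. For LPS+CPZ against LPS those higher (13) became 8 with the globin genes left out. In LPS+CPZ against LPS+EtOH those higher (31) became 18 under median-ratio scaling and 20 with the 5 FPKM filter, and those lower (13) became 29 under median-ratio scaling. The log2 ratio of Itga5 to Itgb1 in LPS+EtOH against LPS (−0.09) ranged from −0.28 to 0.067 when single libraries were left out, the last without LPS library 1.

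Deviations of same-numbered libraries correlated weakly (r of −0.00645 to 0.26, 8 of 9 pairs above 0, mean 0.0953). Different numbers had a mean of −0.0476, which follows from centring each group on its own mean and is no separate reference. Only 3 of 9 same-numbered pairs were over 0.1, and 2 of 9 libraries correlated best with their own number in both other groups. The numbers were therefore not taken as pairs. A replicate block called 9871, 8156 and 9086 genes in the 3 comparisons and left the counts of the 9 genes at 3 higher and 5 lower, 1 and 7, and 3 and 5. The globin alternative was listed among the alternatives with earlier results of these data known. The depth is unknown, so counting error cannot be given for the weakest genes, Itga4 and Itgav.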
